A study of Mus musculus with 3 samples.

Results

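Pendrin, the product of Slc26a4, is an exchanger of chloride, iodide and bicarbonate in the membrane facing the endolymph, the fluid that bathes the sensory hair cells. In the cochlea it is known from the root cells and spindle cells of the lateral wall and from other epithelial cells of the outer sulcus, and its loss leads to an enlarged, acidified endolymph space and deafness. The cells described here were the barcodes with at least 2 Slc26a4 unique molecular identifiers (UMIs, each a counted transcript molecule) among barcodes with 200 to 6000 genes and at most 15% of their UMIs from mitochondrial genes. There were 347 of them among 14378 barcodes within those limits, and they are called Slc26a4 barcodes here, since Epyc, a root cell marker, did not pass the test against the other barcodes and the call for Lgr5, the other one, rested on 1 library.

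The study dissected cochlear tissue from C57BL/6J mice (strain C57/B6 in the labels), took off the bony wall, by which a portion of the basal turn was lost, dissociated the tissue with collagenase IV and sequenced single cells by 10x Chromium 3′ v3.1 chemistry, with 1 library at postnatal day 14 (P14) and 2 at P28. No transgene, surgery or drug is described for any of the mice, and each library pooled 7 mice and 14 cochleae, so that single animals could not be told apart. The labels do not give the sex of the pooled mice. The limits left 1662 barcodes at P14, 5651 in P28 replicate 1 and 7065 in P28 replicate 2.

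Pendrin-expressing barcodes were nearly all from the P28 libraries. Of the 347, 3 came from P14, 137 from P28 replicate 1 and 207 from P28 replicate 2, which was 0.181% (exact binomial 95% interval 0.0372 to 0.527%), 2.42% (2.04 to 2.86%) and 2.93% (2.55 to 3.35%) of the barcodes of each library. The summed profiles that carry all following levels held 13935, 510147 and 635560 UMIs, so that a gene with 0 UMIs could stand at up to 215 counts per 1000000 UMIs (CPM) at P14 and at up to 5.88 and 4.72 CPM in the P28 libraries, by the limit of 3 counts. The P14 profile is thus that of 3 cells, and no test was made between the ages. The median depth per barcode was 4515, 2463 and 2169 UMIs, against 2470, 2418 and 2033 UMIs in the other barcodes, and the median mitochondrial share was 8.01, 9.52 and 11.2% against 6.24, 10.1 and 10.8%. No barcode sequence was an Slc26a4 barcode in more than 1 library, and 1 of the 347 sequences also occurred among all called barcodes of a second library. Of all called barcodes, within the limits or not, 10 to 54 sequences were shared by a pair of libraries. No doublet caller was run, and 1, 19 and 27 of the Slc26a4 barcodes held at least 3 UMIs of a hair cell, neuron, glia or immune list, a share of 33.3, 13.9 and 13.0%, against 38.9, 32.4 and 25.5% of the other barcodes.

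The number of Slc26a4 UMIs was low in most members. In P28 replicate 1, 57 barcodes held 2 UMIs, 34 held 3 and 46 held 4 or more, with a maximum of 13. In P28 replicate 2 the numbers were 86, 52 and 69, with a maximum of 21. The 3 barcodes of P14 held 2, 3 and 3. Just outside the threshold, with 1 UMI, stood 7, 176 and 347 barcodes. The threshold thus lay where the number of barcodes was still falling with each further UMI, with no gap beside it. Over the P28 libraries together, Ceacam16 stood at 1226 CPM in barcodes with 1 Slc26a4 UMI, at 3157 CPM in those with 2 and at 4675 CPM in those with 3 or more. Otoa was seen in 19.7, 35.0 and 52.7% of the same barcodes, whereas Vmo1 stood at 2008, 2144 and 723 CPM.

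**Figure D1:**
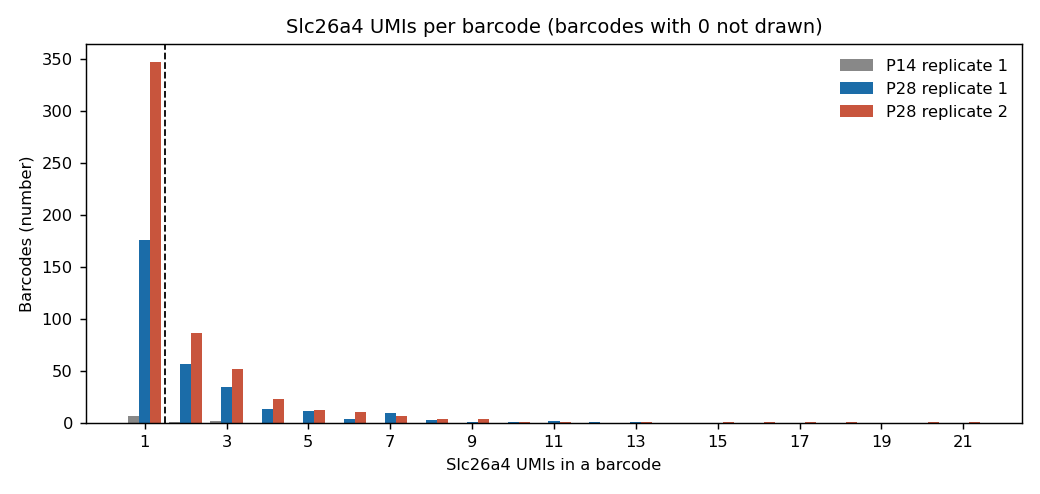
Number of barcodes (vertical axis) by number of Slc26a4 UMIs in the barcode (horizontal axis, 1 and above) in each of the 3 libraries, with a dashed line at the threshold of 2 UMIs. The bars fall from 1 to 6 UMIs in both P28 libraries and reach 13 and 21 UMIs, and the P14 library holds 3 barcodes above the line.

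Epyc and Lgr5, the root cell markers named above, were first compared with the rest. Slc26a4 itself, which chose the barcodes, stood at 574, 980.1 and 1256 CPM in P14, P28 replicate 1 and P28 replicate 2, against 0.944, 7.31 and 15.3 CPM in the other barcodes. Epyc encodes epiphycan, a small leucine-rich proteoglycan. Its level was 287, 964 and 1320.1 CPM in the Slc26a4 barcodes against 5103, 1254 and 932 CPM in the others. Thus Epyc was lower than in the other barcodes at P14 and in P28 replicate 1 and higher in P28 replicate 2, and it did not pass the test (log2 fold change -1.05, SE 0.61, adjusted p = 0.29 from edgeR's quasi-likelihood fit, adjusted over all tested genes, as are all adjusted p-values below). Without the P14 library the fold change was 0.051 with an adjusted p of 0.84. The share of barcodes with an Epyc UMI was nevertheless larger among Slc26a4 barcodes at P28, at 59.1% (exact binomial interval 50.4 to 67.4%) and 69.6% (62.8 to 75.8%) against 37.4 and 36.2% of the others. Macrophage barcodes (at least 5 UMIs of the macrophage list), which should lack the gene, held an Epyc UMI in 23.0 and 26.7% of cases at a median depth of 2384 and 2195 UMIs. After every barcode was thinned to 1000 UMIs, the shares were 39.6 and 56.3% in Slc26a4 barcodes, 28.2 and 27.8% in others and 15.2 and 16.1% in macrophage barcodes.

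Lgr5, a Wnt-pathway receptor for R-spondins, differed between the P28 replicates. It stood at 71.8, 5.88 and 116 CPM in Slc26a4 barcodes and at 11.6, 20.6 and 19.0 CPM in the others. The P14 value is 1 UMI. At P28 a UMI was seen in 2 of 137 barcodes of replicate 1 (1.46%, interval 0.177 to 5.17%) and in 36 of 207 of replicate 2 (17.4%, 12.5 to 23.3%), against 6.17 and 4.80% of the others and 1.95 and 0.733% of macrophage barcodes. Hence P28 replicate 1 lay below the other barcodes and P28 replicate 2 above them. Across the libraries the log2 fold change was 1.57 (SE 0.29, adjusted p = 4.3e-06), a call that rested on P28 replicate 2. Without that library the value was -1.42 (adjusted p = 0.46), without P28 replicate 1 the adjusted p was 0.059, without the library as a block it was 0.27, and by DESeq2 it was 0.81.

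Of the 7 root cell markers in the list, 3 were higher and none was lower, with a median log2 fold change of 0.77. In this comparison 6.43% of 13123 tested genes were higher and 8.95% lower, with a median of -0.07. The 3 were Lgr5, P2rx2 and Bmp6, and none of them passed without either P28 library. P2rx2, an ATP-gated cation channel, stood at 359, 370.5 and 220.3 CPM against 194, 87.2 and 64.6 CPM, above the others in every library (log2 fold change 1.64, SE 0.31, adjusted p = 4.4e-06). Bmp6, a secreted bone morphogenetic protein, was at 0 UMIs at P14 and stood at 123 and 119.6 CPM at P28 against 40.2 and 31.9 CPM (log2 fold change 1.59). Kcnj16, an inward rectifier potassium channel subunit, stood at 431, 235 and 327 CPM against 344, 153 and 114 CPM and did not pass the test (0.77, SE 0.35, adjusted p = 0.12). The spindle cell list shares P2rx2 and Kcnj16 with it and adds Anxa1 and Dpp10, and 3 of these 4 were higher (median 1.47). Anxa1, a calcium-dependent phospholipid-binding protein, was at 0 at P14 and at 241 and 229.7 CPM at P28 against 78.4 and 97.7 CPM (log2 fold change 1.31, SE 0.27), but its UMIs lay in 17 and 24 barcodes, and 12.4 and 11.6% of the Slc26a4 barcodes held one against 17.1 and 17.4% of the others. After thinning to 1000 UMIs the shares were 10.4 and 6.03% against 8.16 and 8.98%. The share thus lay above the others in P28 replicate 1 once thinned and below them otherwise, against the CPM, and no order is read from it. The call for Anxa1 was lost without either P28 library. Dpp10, an auxiliary subunit of potassium channels, was at 0 at P14 and at 19.6 and 20.5 CPM at P28 against 2.45 and 2.51 CPM (log2 fold change 2.98, SE 0.42), with a UMI in 3.65 and 2.90% of the Slc26a4 barcodes. It passed without P28 replicate 1 and was not tested without P28 replicate 2.

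The counts against all other barcodes moved with the libraries used. The 844 higher and 1175 lower genes became 94 and 16 without P28 replicate 1 and 220 and 151 without P28 replicate 2, fits in which the 3 barcodes of P14 form 1 of the 2 libraries left. Among the genes of the lists described here, 51 higher and 63 lower genes became 7 and 8, and 16 and 12. Scaling by relative log expression in place of trimmed means gave 714 higher and 1683 lower genes and a median of -0.22.

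**Figure D2:**
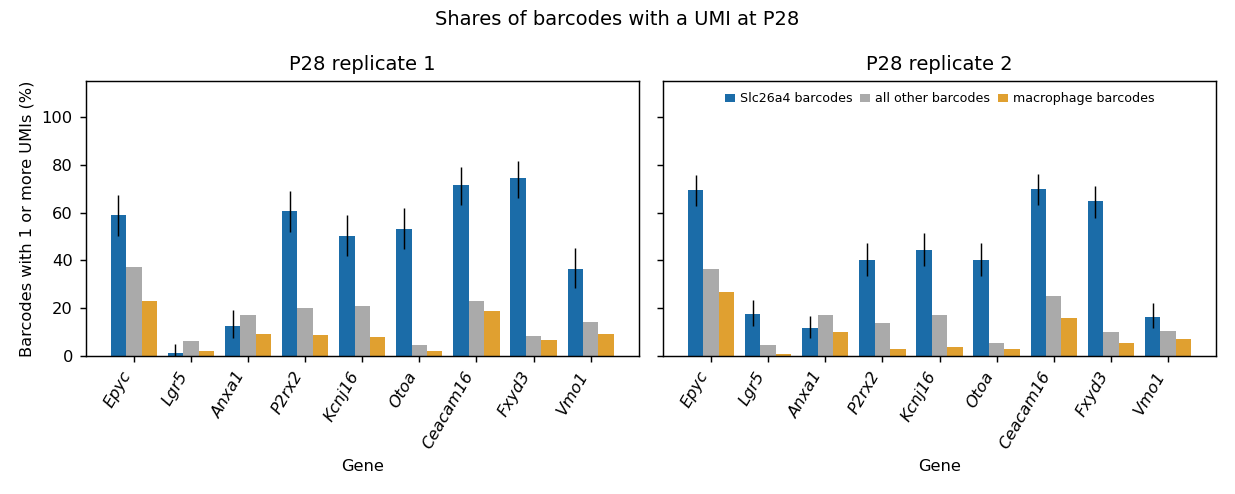
Share of P28 barcodes with at least 1 UMI of each gene (percent, vertical axis) in Slc26a4 barcodes (with exact binomial 95% intervals), all other barcodes and macrophage barcodes, for both P28 libraries. Otoa and Ceacam16 stand apart from both comparison sets in both libraries, at 53.3 and 40.1% and at 71.5 and 70.0%, while Lgr5 does so in P28 replicate 2 alone.

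Otoa and Ceacam16, both of the extracellular gels of the inner ear, were among the 25 genes named by the size of their increase. The barcodes were chosen by Slc26a4 alone, and that choice did not use these genes. The 25 genes were, however, named from the same values. The naming rule asked for a passed test, the same direction in every library and a UMI in enough Slc26a4 barcodes of each library. That they passed and were higher in each library thus follows from the rule, and their p-values are not independent of it. Otoa (chromosome 7, 121081650 to 121163097, plus strand, GRCm38) encodes otoancorin, which anchors the acellular gels of the inner ear to nonsensory cells. It stood at 502, 355 and 225 CPM against 17.5, 15.2 and 21.7 CPM in the other barcodes. All 3 libraries were far above the others (log2 fold change 3.95, SE 0.25, adjusted p = 1.2e-50), and Otoa remained past the threshold in all 14 alternatives run for it. A UMI was present in 53.3% (44.6 to 61.9%) and 40.1% (33.4 to 47.1%) of Slc26a4 barcodes at P28, against 4.73 and 5.32% of the others and 2.33 and 2.93% of macrophage barcodes. Ceacam16 (chromosome 7, 19852097 to 19861299, minus strand), a secreted glycoprotein of the tectorial membrane, stood at 2225, 4961 and 3383 CPM against 213, 364 and 429.8 CPM. It too was above the others in each library (log2 fold change 3.06, SE 0.58, adjusted p = 4.6e-06), and 71.5 and 70.0% of Slc26a4 barcodes at P28 held a UMI against 23.2 and 25.1% of the others. Its call was lost without P28 replicate 1 (adjusted p = 0.51) and without P28 replicate 2 (0.17), and at a threshold of 3 Slc26a4 UMIs (log2 fold change 2.44, adjusted p = 0.056).

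The other genes named by the size of their increase were higher in each library by the rule that names them. Entpd8, which hydrolyses extracellular nucleotides, had the largest log2 fold change, at 5.27 (SE 0.34), with 144, 74.5 and 48.8 CPM against 1.89, 1.20 and 1.94 CPM. Degs2, an enzyme of sphingolipid synthesis, followed at 4.55 (SE 0.26), with 144, 167 and 116 CPM against 9.17, 4.77 and 6.31 CPM. Fxyd3, a regulator of the sodium-potassium pump, stood at 1220.0, 706 and 595 CPM against 66.7, 35.5 and 48.7 CPM (3.77, SE 0.38). In these 3 genes the lowest value of the Slc26a4 barcodes exceeded the highest value of the others. The same was seen for Tcap, known as a cap protein of the sarcomere, at 215, 1008 and 527 CPM against 35.0, 34.5 and 44.6 CPM (3.85, SE 0.43), and for Dclk1, a microtubule-associated kinase, at 287, 745 and 1205 CPM against 23.5, 54.4 and 123 CPM (3.40, SE 0.46). Ppp1r1b, a phosphatase inhibitor, stood at 287, 612 and 428 CPM against 4.18, 50.4 and 79.3 CPM (3.15, SE 0.36). The integrin-like gene Itgbl1 stood at 144, 108 and 134 CPM against 12.1, 6.60 and 13.1 CPM (3.59), and the glycosyltransferase gene Galnt7 at 287, 145 and 131 CPM against 18.1, 14.8 and 20.4 CPM. Of the 25 genes named by the size of their increase, 12 passed the test in every alternative run for them, among them Entpd8, Degs2, Otoa, Itgbl1, Scx, Smtnl2, Fat2, Galnt7, Bricd5, Adam11, Lmx1a and Acp7. Without P28 replicate 1, 13 of the 25 passed, and Fxyd3 (adjusted p = 0.11), Tcap (0.37), Dclk1 (0.33) and Ppp1r1b (0.14) did not. Without P28 replicate 2, 20 of the 25 passed, and Ceacam16 (0.17), Rnase1 (0.11), Tcap (0.057), Tspan8 (0.15) and Zmynd12 (0.22) did not.

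**Figure D3:**
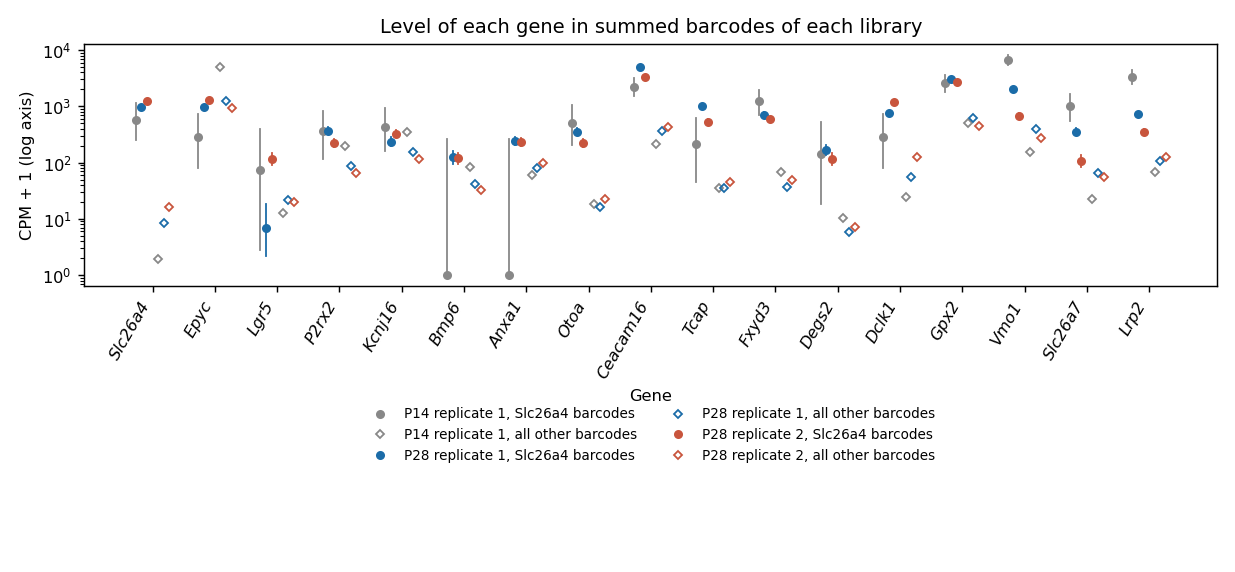
Level of named genes (CPM + 1, log axis) in the Slc26a4 barcodes (filled circles, with exact Poisson 95% intervals that cover counting error only) and in all other barcodes (open diamonds) in each of the 3 libraries. Otoa, Ceacam16, Degs2 and Fxyd3 lie above the open diamonds in every library, while Epyc lies below them at P14 and above them in P28 replicate 2.

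Vmo1, Slc26a7, Lrp2, Rnase1 and Dkk2 were highest at P14, with a value that came from 1 barcode, and lower in P28 replicate 2 than in P28 replicate 1. The 3 genes listed for Reissner's membrane, the thin epithelium between endolymph and perilymph, were all higher, with a median log2 fold change of 2.08. Vmo1, a secreted protein named for the egg vitelline membrane, stood at 6674, 2013 and 681 CPM against 155, 390.1 and 278 CPM (2.63, SE 0.52), and Slc26a7, an anion transporter related to pendrin, at 1005, 355 and 105 CPM against 21.7, 63.0 and 55.5 CPM (2.08, SE 0.25). Together the 3 listed genes, Meis2 among them, summed to 7679, 2405 and 806 CPM against 180.2, 462 and 343 CPM. At P28, 29.2 and 10.6% of Slc26a4 barcodes held at least 3 UMIs of this list against 7.45 and 5.89% of the others. With them rose Lrp2, the endocytic receptor megalin, at 3373, 717 and 351 CPM against 68.3, 108 and 125 CPM (2.83, SE 0.38). Rnase1, a secreted ribonuclease, stood at 10334, 2099 and 804 CPM against 201, 390.2 and 279.8 CPM (2.81). Dkk2, a secreted modulator of Wnt signalling, stood at 3086, 399.9 and 192 CPM against 38.7, 76.3 and 64.9 CPM (2.81). In each of these 5 genes the lowest value of the Slc26a4 barcodes, that of P28 replicate 2, lay above the highest value of the others. Without P28 replicate 1 the calls for Lrp2 (adjusted p = 0.33), Rnase1 (0.48) and Dkk2 (0.21) were lost. Without P28 replicate 2 the call for Rnase1 was lost too (0.11). Without the mixed barcodes, the calls for Vmo1 (adjusted p = 0.75), Rnase1 (0.71), Lrp2 (0.072) and Meis2 (0.23) were lost. Those for Dkk2 (0.0033) and Slc26a7 (0.0078) were not lost. The P14 barcode that carries the P14 values of all of these genes but Meis2 is among the mixed barcodes left out. None of the 3 Reissner's membrane genes passed without P28 replicate 1, and Meis2 and Slc26a7 did without P28 replicate 2. When barcodes with 2 or more Vmo1 UMIs were left out on both sides, an alternative chosen after the values had been seen and one that removes the UMIs of Vmo1 itself by its construction, the calls for Dkk2 (adjusted p = 0.83), Slc26a7 (0.86) and Meis2 (0.61) were lost, 24 of the 25 genes named by the size of their increase passed, and 634 genes were higher and 864 lower in all.

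Pendrin works beside other transporters of anions and protons. Of 23 anion transporter genes, 15 were tested, of which Slc26a7 was higher and Slc4a4 and Slc4a11 were lower (median log2 fold change 0.15, beside 6.43% higher and 8.95% lower of all genes tested). None of these passed without P28 replicate 1, and Slc26a7 and Slc4a4 did without P28 replicate 2. Slc4a4, a sodium-bicarbonate cotransporter, stood at 0, 3.92 and 23.6 CPM against 15.8, 36.4 and 39.8 CPM (-1.42, SE 0.40). The basolateral exchanger Slc4a2 held 0, 35 and 26 UMIs and did not pass the test (0.39, adjusted p = 0.46). Among 8 tested carbonic anhydrases, which interconvert carbon dioxide and bicarbonate, Car12 was higher and Car2, Car3 and Car7 were lower, with a median of -0.88, and Car3 alone passed without P28 replicate 2 and none without P28 replicate 1. Car2 stood at 0, 35.3 and 62.9 CPM against 214, 129 and 123 CPM (-1.45, SE 0.32). Car12, on the other hand, stood at 0, 29.4 and 189 CPM against 3.24, 19.8 and 25.9 CPM, with most of the excess in P28 replicate 2. Of 20 tested subunits of the proton pump, the V-ATPase, none was higher and Atp6v1c2 and Tcirg1 were lower (median -0.04), calls that were lost without either P28 library. The subunit gene Atp6v0c stood at 574, 484 and 426 CPM against 485, 454 and 415 CPM. Foxi1, the transcription factor that drives pendrin in other pendrin-expressing epithelia, was at 0 UMIs in the Slc26a4 barcodes and in the compared sets, and so were its target subunit genes Atp6v1b1 and Atp6v0a4 in the Slc26a4 barcodes, where 0 counts over the 3 libraries allow up to 2.59 CPM. The chloride channel gene Cftr, the SLC26 genes Slc26a6 and Slc26a9, and Bsnd, a chloride channel subunit, were also at 0 in the Slc26a4 barcodes.

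Potassium recycling genes were split. Of 22 tested genes of potassium channels, pumps, purinergic receptors and gap junctions, P2rx2 and P2ry2 were among the higher and Kcnma1, Atp1b3 and Slc12a7 among the lower (median -0.17), and Kcnma1 passed without P28 replicate 2 and none without P28 replicate 1. Atp1b3, a subunit of the sodium-potassium pump, stood lower at 71.8, 70.6 and 140 CPM against 126, 171 and 228 CPM (-0.99, SE 0.32). Gjb2, the connexin 26 gap junction subunit, stood at 71.8, 286 and 463 CPM against 897, 594 and 547 CPM and was not called. Sodium absorption genes were also tested. Of 10 tested genes for the epithelial sodium channel and its steroid control, 5 were higher and 1 was lower, with a median of 0.91. Among all genes tested, 6.43% were higher and 8.95% lower. Scnn1b, a channel subunit, stood at 431, 66.6 and 28.3 CPM against 14.3, 24.8 and 18.8 CPM (1.30, SE 0.30), and Scnn1a at 71.8, 21.6 and 17.3 CPM against 7.14, 8.80 and 7.85 CPM (1.27, SE 0.40). The P14 values are 6 and 1 UMIs. Sgk1, a steroid-induced kinase that acts on the channel, stood at 71.8, 286 and 324 CPM against 80.7, 92.2 and 99.4 CPM, and Nedd4l and Per1 were higher as well. Nr3c1, the glucocorticoid receptor gene, was the member that was lower. Scnn1b was the member that passed without P28 replicate 2, and none did without P28 replicate 1. Without the mixed barcodes, Scnn1b (adjusted p = 0.40), Scnn1a (0.70) and Per1 (0.078) were not called. Among 4 tested aquaporins none was higher and Aqp11 was lower, a call lost without either P28 library.

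Epithelial genes formed the largest block of increases among the lists. Of 22 tested junction and keratin genes, 12 were higher and none was lower, with a median of 1.29, against 6.43% of all genes tested that were higher. They were Epcam, the claudins Cldn3, Cldn4, Cldn7, Cldn8 and Cldn9, Tjp3, Lsr, and the keratins Krt8, Krt18, Krt19 and Krt23. Cldn3 stood at 215, 184 and 140 CPM against 76.4, 37.7 and 29.3 CPM (2.13, SE 0.24, adjusted p = 4.6e-16). Krt8 stood at 71.8, 80.4 and 40.9 CPM against 19.4, 10.5 and 9.97 CPM (2.44, SE 0.30). Cldn9 stood at 431, 884 and 530.2 CPM against 351, 182 and 137 CPM. In all 3 genes the Slc26a4 barcodes stood above the others within each library. Of the list, Krt8 and Krt23 passed without P28 replicate 1, and they, Cldn4 and Krt18 without P28 replicate 2. The other barcodes also held the blood, bone and connective tissue markers given below, and the list is set against Aqp4 and Ucma barcodes further on.

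Regulators of inner ear development were called in both directions. Of 16 tested, 6 were higher (Sox9, Sox10, Lmx1a, Emx2, Grhl2 and Tbx2), Tbx18 was lower and 9 were not called (median 0.43). Among all genes tested, 6.43% were higher and 8.95% lower. Lmx1a, a homeodomain factor of the otic epithelium, stood at 144, 60.8 and 66.1 CPM, with a log2 fold change of 2.69. Sox9 stood at 502, 541 and 488 CPM against 112, 202 and 232 CPM (1.23, SE 0.38, adjusted p = 0.012). Tbx18, a factor of the otic mesenchyme, stood at 0, 33.3 and 77.1 CPM against 41.3, 193 and 242 CPM (-2.01, SE 0.32). Lmx1a and Grhl2 passed without each of the P28 libraries in turn, Emx2 passed without P28 replicate 2, and the other calls of this list were lost without either. Gata3 stood at 0, 209.7 and 272 CPM against 706, 392 and 284 CPM and was not called.

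Wnt pathway genes, of which Lgr5 is one, moved both ways. Of 26 tested, 8 were higher (Lgr5, Rspo2, Sfrp1, Dkk2, Wnt4, Wnt7a, Wnt7b and Wnt9a) and 5 were lower (Rspo1, Rspo3, Nkd1, Lef1 and Dkk3), with a median of -0.51. Among all genes tested, 6.43% were higher and 8.95% lower. With no replicate block the fold change of Wnt4 turned to -0.17. Rspo2, a secreted ligand of Lgr receptors, was at 0 at P14 and at 58.8 and 53.5 CPM at P28 against 3.99 and 5.38 CPM (3.54, SE 0.32, adjusted p = 2.2e-25, and the member that passed without each of the P28 libraries in turn), with a UMI in 16.1 and 15.0% of Slc26a4 barcodes against 1.60 and 1.62% of the others. Rspo2 thus differed from the others alike in both P28 libraries, which Lgr5 did not. Sfrp1, a secreted inhibitor, stood at 502, 496 and 282 CPM against 86.0 CPM in the others at P14 and less at P28. Of 11 tested small leucine-rich proteoglycans, the family of Epyc, Chadl was higher and Bgn, Dcn, Fmod, Prelp and Ecm2 were lower (median -1.22). Chadl and Dcn passed without P28 replicate 2, and none of this family without P28 replicate 1.

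Of the 16 tested genes of the outer sulcus and organ of Corti list, Otoa, Ceacam16, Otog and Otogl were higher, and Rorb was lower (median -0.16). Of these Otoa passed without each P28 library in turn. Otogl passed in 3 of the 14 alternatives run for it. Otog and Otogl encode otogelin and its relative, further glycoproteins of the gels. Otog stood at 431, 202 and 250 CPM against 49.7, 106 and 86.0 CPM (1.32, SE 0.27). Among 23 tested antioxidant genes, Gpx2 and Gpx3 were higher and Mt3 and Sod3 were lower. Beside them, 6.43% of all genes tested were higher and 8.95% lower. None of them passed without either P28 library. Gpx2, a glutathione peroxidase of epithelia, stood at 2583, 3097 and 2759.8 CPM against 501, 610.5 and 438 CPM (2.15, SE 0.54), with little spread over the libraries. Of 21 tested immediate-early and heat shock genes, Hspa1a, Hspa1b and Hspb1 were higher and Klf2 and Klf4 were lower (median -0.27). Hspa1b passed without P28 replicate 2, and none of them without P28 replicate 1. Hspb1, a small heat shock protein, stood at 287, 284 and 135 CPM against 21.6, 97.3 and 92.1 CPM. The part of cell stress during dissociation in these values was not tested.

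Markers of the other cell types of the cochlea were lower or not called, apart from those of Reissner's membrane and Otog in the phalangeal and pillar cell list. Among all genes tested, 8.95% were lower. Of 4 tested outer hair cell markers 3 were lower, as were 2 of 2 inner hair cell, 4 of 4 neuron, 5 of 5 macrophage, 4 of 4 granulocyte, 4 of 5 erythroid, 4 of 4 fibroblast and 3 of 3 bone markers. So were 2 of 2 intermediate cell, 2 of 3 fibrocyte, 1 of 4 B lineage and 1 of 4 phalangeal and pillar cell markers, and Emilin2, the tested tympanic border cell marker. None of the 4 glia, 3 endothelial and mural or 1 marginal cell markers was called. Without P28 replicate 1 the 4 granulocyte markers, Col1a1 and the bone marker Bglap were those of them still lower, and without P28 replicate 2 they were 4 macrophage, 2 granulocyte and single outer hair cell, inner hair cell, fibroblast and fibrocyte markers. Dct (1.09) and Col1a1 (0.18) turned direction without P28 replicate 2. Calls lost without the mixed barcodes included Ocm (adjusted p = 0.98), Nefh (0.93), Nefl (0.88), Otof (0.81) and Snap25 (0.20). The fold changes of Nefl (0.24) and Otof (0.34) turned there. Mixed barcodes are defined by UMIs of such lists. The macrophage list summed to 0, 27.4 and 107 CPM against 652, 398 and 304 CPM, with C1qb its most abundant gene at P28, at 11.8 and 26.7 CPM. The granulocyte list summed to 0, 0 and 6.29 CPM against 824, 74.5 and 1062 CPM, with Ngp and Camp at 0 in every library. Among all genes with the largest decreases, Ngp was at least 23.1-fold lower, Camp at least 19.0-fold, Mrc1 at least 12.3-fold and Ccl5 at least 7.54-fold, each with 0 UMIs in the Slc26a4 barcodes, a bound on the limit of 3 counts over the group. These bounds moved when 1 library was left out. Without P28 replicate 2 they were 3.47-fold for Ngp, 3.06-fold for Camp and 6.33-fold for Mrc1, and without P28 replicate 1 the bound for Ccl5 was 3.48-fold. Of the 10 genes named for their decrease, 4 passed with DESeq2, 4 without P28 replicate 1 and 2 without P28 replicate 2. The hair cell list was not at 0. It summed to 287, 527 and 577 CPM against 8975, 2100 and 1292 CPM, with Ocm its most abundant gene at P28, at 349 and 417 CPM. Haemoglobin and other erythroid genes summed to 359, 3893 and 8994 CPM against 17835, 11425 and 16783 CPM. Glia genes summed to 71.8, 241 and 669 CPM against 1065, 375 and 369 CPM, and P28 replicate 2 was thus above the others. At P28, 3 or more UMIs of the glia list were held by 4.38 and 3.86% of the Slc26a4 barcodes and by 6.98 and 6.55% of the others. The part of doublets and of free RNA in these sums was not tested.

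The Slc26a4 barcodes were next compared with 2 sets chosen in the same way, by at least 2 UMIs of a gene. These were Aqp4, a water channel of cochlear supporting cells (167, 284 and 210 barcodes), and Ucma, a secreted matrix protein (281, 299 and 296 barcodes). Aqp4 and Ucma, which chose those sets, are not reported in their own comparison. Their median depth was larger, at 8546, 8409 and 5314.5 UMIs for Aqp4 and 4487, 4624 and 2995 UMIs for Ucma. Against Aqp4 barcodes 7.12% of 9034 tested genes were higher and 11.1% lower, with a median of -0.10. Against Ucma barcodes 5.62% of 8539 genes were higher and 10.1% lower, with a median of -0.05. Otoa, Ceacam16, Vmo1, Lrp2 and Rnase1 were higher here too, whereas Otogl was lower than in Aqp4 barcodes and Otog was not called there. Against Aqp4 barcodes Entpd8 was higher by 6.19 on the log2 scale, Vmo1 by 6.04 (SE 0.39), Rnase1 by 5.76, Scx by 5.74, Lrp2 by 5.63 and Ppp1r1b by 5.34, and Otoa by 4.66. Against Ucma barcodes Vmo1 was higher by 5.74, Lrp2 by 5.73, Dkk2 by 5.65, Rnase1 by 5.23, Entpd8 by 4.95, Kif19a by 4.62 and Fxyd3 by 4.57. The 10 genes named as highest in each of these comparisons passed the test in every alternative run for them, and 7 and 8 of the 10 named as lowest did. Leaving out mixed barcodes, leaving out Vmo1 barcodes and thinning were not among these alternatives. Against all other barcodes the calls for Vmo1, Rnase1 and Lrp2 were lost without mixed barcodes. The call for Dkk2 was lost there without Vmo1 barcodes.

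Epyc was lower in Slc26a4 barcodes than in both sets, with a log2 fold change of -3.08 against Aqp4 barcodes and of -3.45 against Ucma barcodes. Kcnj16 was lower than in both as well, at -1.21 against Ucma barcodes. Lgr5 was not called against Aqp4 barcodes (0.50, adjusted p = 0.34) and was higher than in Ucma barcodes (1.13, adjusted p = 0.019), where P28 replicate 1 again lay below the compared set, at 5.88 against 17.6 CPM, and P28 replicate 2 above it, at 116 against 15.5 CPM. Neither Epyc nor Lgr5 was therefore higher than in both sets. Gap junction genes were lower than in both, with Gjb2 at -2.21 and Gjb6, the connexin 30 gene, at -1.62 against Aqp4 barcodes, and so were Gata2 and Gata3, at -2.19 and -3.00 there. Of the 16 tested regulators of the list that holds them, 3 were higher and 6 lower than in Aqp4 barcodes and 5 higher and 4 lower than in Ucma barcodes, with Lmx1a, Dach1 and Tbx2 higher than in both. Among the 10 genes named as lowest against Aqp4 barcodes, the first 5 held 1 to 4 UMIs in the Slc26a4 barcodes, led by Pakap (-5.25) and Slc35f3 (-4.61), of which Slc35f3 did not pass without either P28 library (adjusted p = 0.076 and 0.064). The others included Inhba, an activin subunit gene, at -4.07 (SE 0.35), Lgals1, a galectin, at -3.98 and Qpct, a glutaminyl cyclase, at -3.67. Inhba stood at 0, 19.6 and 9.44 CPM against 108, 183 and 191 CPM in Aqp4 barcodes. Among the 10 named as lowest against Ucma barcodes, Coro2a, Emilin3 and Sp5 held 0 UMIs in the Slc26a4 barcodes and were at least 10.4-fold, 12.4-fold and 6.09-fold lower, bounds that fell to 4.99-fold and 2.95-fold for Coro2a and Sp5 without P28 replicate 2 and to 4.80-fold for Emilin3 without P14. The calls for Emilin3 and Sp5 were lost without either P28 library. With them were Car3 at -5.22, Lgals1 at -4.79, Qpct at -4.67, Clic6 at -4.52 and Otos, a secreted inner ear protein, at -3.93. Lgals1 and Qpct thus lay below both sets. The epithelial block shrank in these comparisons. Of the junction and keratin genes 4 of 20 tested were higher and 3 were lower than in Aqp4 barcodes, and 5 of 17 were higher and none was lower than in Ucma barcodes. Cldn3, Cldn8 and Krt8 were higher in all 3 comparisons.

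**Figure D4:**
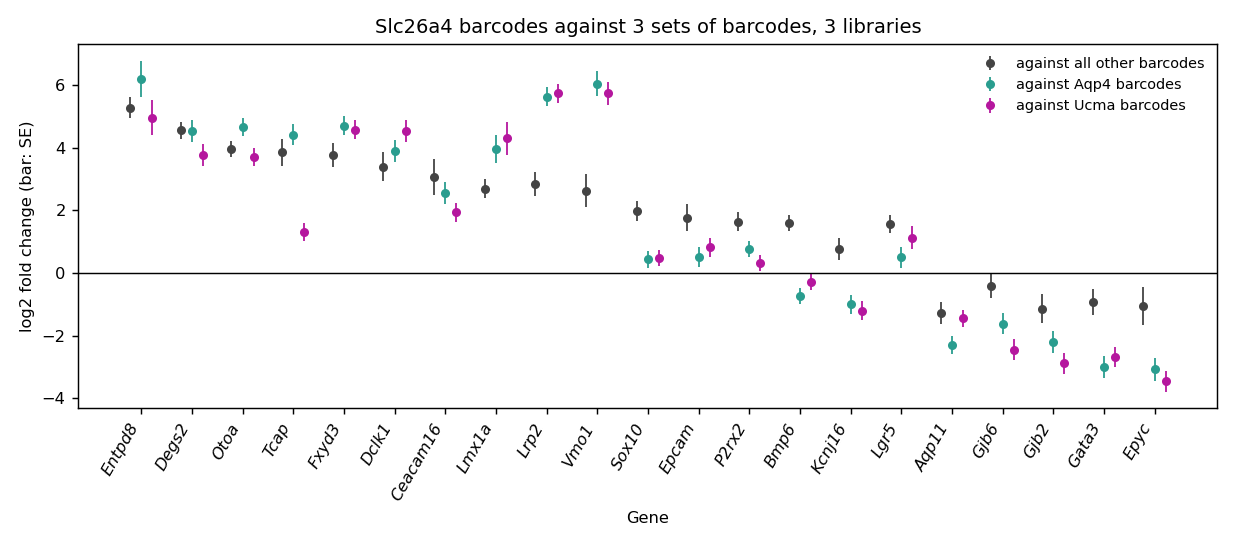
Log2 fold change with its standard error (vertical axis) of named genes (horizontal axis) in Slc26a4 barcodes against all other barcodes, Aqp4 barcodes and Ucma barcodes. Otoa and Vmo1 lie above 0 in all 3 comparisons, Epyc lies at -1.05, -3.08 and -3.45, and Gjb2 lies at -2.21 against Aqp4 barcodes.

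Neuron and glia genes also stood above Aqp4 and Ucma barcodes. Against Aqp4 barcodes Nefh, Nefl and Snap25 were higher (3 of 3 neuron genes tested), as were 3 of 4 glia genes, Pmp22 among them. None of these passed without P28 replicate 2. Other markers higher than in Aqp4 barcodes were Emilin2 (tympanic border cells), Coch and Otos (fibrocytes, of whose 3 listed markers Car3 was lower), Hbb-bt and Hba-a2 (erythroid cells) and Col1a2 (fibroblasts), of which Col1a2 passed without P28 replicate 2 and none without P28 replicate 1. Emilin2 was also higher than in Ucma barcodes, where Coch, Otos and Col1a2 were lower. In the Slc26a4 barcodes the neuron list summed to 406 and 925 CPM at P28, below all other barcodes, which stood at 1791 and 1738 CPM. At P14 it held 0 UMIs, and the level of the others lay under the limit that 0 UMIs allow. At P28, 1.46 and 1.93% of the Slc26a4 barcodes held 3 or more UMIs of the neuron list. The part of barcodes that hold RNA of another cell in these calls was not tested.

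The Slc26a4 barcodes were not uniform. With Otoa, Lgr5, Anxa1 and Vmo1 as leads, picked after their values had been seen and therefore given with no test, 207 of 347 barcodes (59.7%) belonged to exactly 1 set (at least 1 UMI of Otoa, Lgr5 or Anxa1, or at least 2 of Vmo1), 42 (12.1%) to 2 sets, 4 to 3 sets and 94 (27.1%) to none. Otoa marked 1, 73 and 83 barcodes of the libraries, Lgr5 1, 2 and 36, Anxa1 0, 17 and 24 and Vmo1 1, 42 and 23. The Lgr5 set was thus nearly all in P28 replicate 2, and the Vmo1 set more in P28 replicate 1. Otoa and Lgr5 met in 3 barcodes, Lgr5 and Vmo1 in 3 and Lgr5 and Anxa1 in 4. Otoa and Anxa1 met in 9, Anxa1 and Vmo1 in 17 and Otoa and Vmo1 in 18. The sets held 157 (Otoa), 66 (Vmo1), 41 (Anxa1) and 39 (Lgr5) barcodes, and no order is read from overlaps of sets of such different size.

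Over the P28 libraries together the sets carried different genes. In the 156 Otoa barcodes Ceacam16 stood at 8448 CPM with a UMI in 97.4% of barcodes, Gpx2 at 4825 CPM and Tcap at 1635 CPM, with Lgr5 at 9.6 CPM. In the 38 Lgr5 barcodes Ceacam16 stood at 541 CPM, and Epyc at 1921 CPM with a UMI in 94.7% of them. These Lgr5 barcodes also held Dclk1 (2205 CPM, 92.1%), Car12 (531 CPM, 76.3%), the growth factor gene Fgf9 (381 CPM, 76.3%), Gjb2 (546 CPM, 86.8%) and the adhesion receptor gene Adgra3 (330 CPM, 65.8%). Their Car12 and Fgf9 shares compare with 3.21 and 7.05% in the Otoa barcodes. Since 36 of the 38 came from P28 replicate 2, the shares were also taken within it, where Car12 and Fgf9 were each seen in 75.0% of the Lgr5 barcodes and in 4.82 and 7.23% of the Otoa barcodes. These genes were chosen after their values were seen, and the Lgr5 barcodes of P28 replicate 2 were deeper than its Otoa barcodes, with a median of 3260 against 1754 UMIs. In the 65 Vmo1 barcodes Lrp2 stood at 1880 CPM (92.3%), Slc26a7 at 856 CPM (70.8%) and Dclk1 at 1493 CPM, with Epyc in 38.5% of them. The 41 Anxa1 barcodes held Coch, the gene of cochlin, at 1242 CPM, Mia at 906 CPM and Lrp2 at 844 CPM, with Epyc in 51.2%. The 94 barcodes in none of the sets, 28 and 66 by library, held Ceacam16 at 3874 CPM (71.3%) and Epyc at 1960 CPM (74.5%). The sets are not ranked by these pooled levels, since their barcodes divide unlike over the 2 libraries. The libraries themselves differ, with Ceacam16 at 4961 and 3383 CPM and Epyc at 964 and 1320 CPM over all Slc26a4 barcodes.

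**Figure D5:**
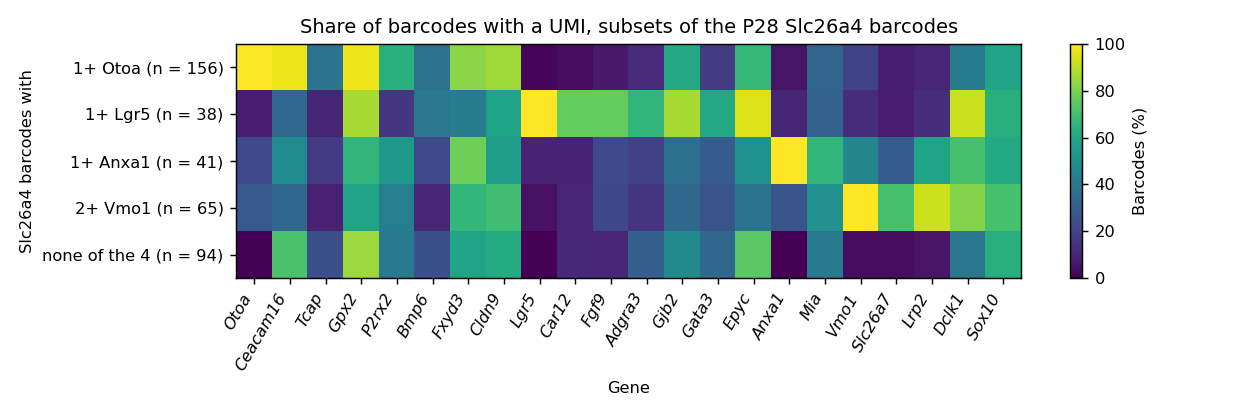
Share of P28 Slc26a4 barcodes with a UMI (percent, colour scale) of each gene (columns) in barcodes with Otoa (n = 156), Lgr5 (38), Anxa1 (41), at least 2 Vmo1 UMIs (65) or none of these (94). Ceacam16 is at 97.4% in Otoa barcodes and 34.2% in Lgr5 barcodes, Car12 at 3.21 and 76.3%, and Lrp2 is at 92.3% in Vmo1 barcodes.

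The barcodes were then divided by 4 genes of the root and spindle cell lists. Root-side barcodes held more Epyc and Lgr5 UMIs than Anxa1 and Dpp10 UMIs, and spindle-side barcodes the reverse. The sides are named for these genes and not for cell types. Epyc set the Slc26a4 barcodes apart at P28 by its share but not by its level. Anxa1 did so by its level but not by its share. Root-side barcodes numbered 2, 74 and 141 and spindle-side barcodes 0, 14 and 15, and 49 and 51 barcodes at P28 fell on neither side, 47 and 50 of them with 0 UMIs of all 4 genes. The sides were compared in the P28 libraries, where 4.55% of 3979 tested genes were higher and 4.95% lower on the root side, with a median of 0.05. Otoa, Ceacam16 and Otog were higher on the root side. Otoa stood at 399 and 198 CPM there against 0 and 22.1 CPM (log2 fold change 4.61, adjusted p = 0.011), and was seen in 48 of 74 and 54 of 141 root-side barcodes against 0 of 14 and 2 of 15. Ceacam16 stood at 6373 and 3189 CPM against 132 and 664 CPM (3.58). With them, of 14 tested potassium and gap junction genes 6 were higher, among them Gjb2, Gjb6 (2.85), Kcnj10 (3.29) and Kcnj16 (2.39), and Atp1b2 was among the lower. Gata3 was higher by 1.80 and Tbx18 lower.

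Genes higher on the spindle side included Emilin2, Fn1, Lrp2 and Rnase1. Emilin2, an elastin microfibril protein, was higher there (log2 fold change -4.34, root side minus spindle side), but its UMIs came from 4 of 14 barcodes in P28 replicate 1 and 5 of 15 in P28 replicate 2. Fn1, fibronectin, differed most (-4.86), with all 67 spindle-side UMIs of P28 replicate 1 in 3 barcodes. Lrp2 (-2.77), Cndp2 (-2.56), Rnase1 (-2.35) and Vmo1 (-1.14) were lower on the root side. Lrp2 and Rnase1 were each seen in 12 of 14 spindle-side barcodes of P28 replicate 1. In P28 replicate 2 they were seen in 11 and 9 of 15. The root side also carried genes of other cells. Snap25, a synaptic protein, held 385 UMIs on the root side and 0 on the spindle side, at least 30.8-fold higher, but in 4 of 74 and 6 of 141 barcodes, and 1 barcode held 108 of the 113 UMIs of P28 replicate 1. By either library alone the bound was 18.5-fold (P28 replicate 2) and 11.2-fold (P28 replicate 1). Nefl was at least 13.1-fold higher (8.63-fold and 3.66-fold), and the 4 tested haemoglobin genes were higher too. Of the genes named by their size on the root side, Snap25, Nefl, Ndrg4, Rian and Snhg11 were among those not called by DESeq2.

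The P28 replicates of the Slc26a4 barcodes were compared with each other by counting error. The 387 genes compared were list members, genes named in the comparisons of barcode sets and genes chosen after their values were seen. Of these, 80 had exact Poisson 95% intervals that lay apart, counting error only. These intervals leave out the spread between pools of mice and between barcodes, and no count for pools without a difference was made. The share over all genes was not taken, so the 80 are not read as many or few. Higher in P28 replicate 1 were Vmo1, Rnase1, Lrp2 and Slc26a7, and higher in P28 replicate 2 were Lgr5, Car12, Fgf9 and Dclk1 (the Vmo1 and Lgr5 sets above are larger in the same libraries). Dclk1 also stood higher in the other barcodes of P28 replicate 2, at 123 against 54.4 CPM. The other barcodes also differed in the same direction for Vmo1, at 390.1 CPM in P28 replicate 1 and 278 CPM in P28 replicate 2. So they did for Rnase1 (390.2 and 279.8 CPM), Slc26a7 (63.0 and 55.5 CPM) and Car12 (19.8 and 25.9 CPM). The direction is thus not particular to the Slc26a4 barcodes for these genes. For Lrp2, Lgr5 and Fgf9 the other barcodes went the other way. The part of set size in these differences was not tested. Anxa1 (241 and 229.7 CPM) and Dpp10 (19.6 and 20.5 CPM) had overlapping intervals. Both libraries have the same age and strain in the labels.

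At P14 the 3 barcodes were each unlike the others. The first, with 7823 UMIs and 3082 genes, held 3 Slc26a4, 93 Vmo1, 144 Rnase1, 47 Lrp2, 43 Dkk2 and 14 Slc26a7 UMIs. The second, with 4515 UMIs and 2216 genes, held 2 Slc26a4, 7 Otoa, 31 Ceacam16, 13 Fxyd3 and 4 Epyc UMIs. The third, with 1597 UMIs and 825 genes, held 3 Slc26a4 and 1 Lgr5 UMI. Thus the Vmo1, Lrp2 and Rnase1 values at P14 are those of 1 barcode and the Otoa, Ceacam16 and Epyc values those of another. An interval rule asked for Poisson intervals of P14 apart from those of both P28 libraries, in the same direction. It also asked for at least 200 CPM, at P14 for higher genes and in both P28 libraries for lower genes. Slc26a4 and mitochondrial, ribosomal protein and haemoglobin genes were left out. By this rule 140 genes (0.917% of the 15265 seen in a Slc26a4 barcode) were higher and 26 (0.17%) lower at P14. The 15265 were not limited to genes at 200 CPM. The counts describe 3 barcodes, with no test. Of the 140, 44 were seen in 1 P14 barcode. With each barcode thinned to 1000 UMIs, the counts were 47 and 4. The genes with the largest differences included Ecrg4, at 2296 CPM at P14 and at 45.1 and 3.15 CPM at P28, and, in the other direction, Ptn, the gene of pleiotrophin, with 0 UMIs at P14 against 2070.0 and 2414 CPM, and Coch, with 0 against 406 and 607 CPM. The limit of 215 CPM that 0 UMIs allow in the P14 barcodes lies below all 4 of these P28 levels.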

How the data were processed

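Per the labels and file headers, the authors aligned and counted the libraries with Cell Ranger (6.0.1 in the submitters' processing notes, 5.0.1 in the headers) against mm10, and deposited whole-number UMI counts per gene and called barcode, not normalized. The files held 2513, 11948 and 18196 called barcodes with 10125255, 35485894 and 37530956 UMIs, of 32285 genes. Barcodes were kept at 200 to 6000 genes and at most 15% mitochondrial UMIs.

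Counts were summed per library and barcode set. The sets were compared by edgeR 4.0.16 quasi-likelihood tests (R 4.3.3) with trimmed-mean scaling, the library as a block and Benjamini-Hochberg adjustment over all tested genes, at 0.05, 2-sided. Low-count genes were removed by edgeR's expression filter. The block pairs sums of the same library, whose deviations from the set means correlated at 0.206, 0.149 and 0.244. The sides were fitted on the P28 sums. On simulated data the fit against all other barcodes recovered 59.6% of 4-fold and 6.19% of 2-fold changes over 12713 genes. CPM is the count per 1000000 UMIs of a sum, with exact Poisson and binomial 95% intervals that cover counting error only. The 3 libraries are pools of mice. With the library as a block, p-values rest on how the difference between the compared sets varies from library to library. The fit estimates that variation with information shared over genes. The p-values do not measure the spread between single mice.

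The members, the 33 gene lists and the tests were chosen with earlier results of these data known. Named genes were list members and the 25 highest and 10 lowest fold changes (10 each way in the other comparisons) among genes past the threshold, in the same direction in every library and with at least 30 UMIs, and for higher genes a UMI in at least 10% of the Slc26a4 barcodes of each library. Genes named outside the rule, such as Fgf9, Adgra3 and Mia, were chosen after their values were seen. Alternatives were DESeq2 1.42.0, other scaling, filters and limits, no block, thinning to 1000 UMIs, leaving out mixed barcodes or single libraries, and a stricter threshold. Figures were drawn with matplotlib 3.10.9. Coordinates are those of the GRCm38 annotation. Some genes of the lists and of the named sets are not reported here.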

Additional observations from a re-analysis of the deposited data

Results flagged for a closer look

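Barcodes above the mitochondrial limit of 15%, used in none of the comparisons of the report and in 1 alternative with a limit of 30%, also held Slc26a4. With 2 or more Slc26a4 UMIs there were 110 of 5899 (1.86%, exact binomial interval 1.54 to 2.24%) in P28 replicate 1 and 286 of 10606 (2.70%, 2.40 to 3.02%) in P28 replicate 2. Among macrophage barcodes over the limit there were 1 of 143 (0.699%) and 1 of 262 (0.382%). At P14 there were 0 of 493, which allows up to 0.745% by the exact interval.

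For 16 listed genes the P14 library lay on the other side of the other barcodes than both P28 libraries, a difference that was not tested. Anxa1, Bmp6, Car12, Cldn4, Dpp10, Grhl2, Hspa1a, Hspa1b, Meis2, Otogl, Rspo2, Tjp3, Wnt7a and Wnt9a held 0 UMIs in the 3 barcodes of P14 and were higher than in the other barcodes at P28. Sgk1 held 1 UMI at P14. Nr3c1 held 2 at P14 and was lower at P28. In 16 of 16 the exact Poisson interval of the P14 value held the level of the other barcodes.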

How the results depend on the processing

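Against all other barcodes, 844 genes were higher and 1175 lower. DESeq2 gave 243 and 286, 10 UMIs in every sum 15 and 2, and thinning 292 and 389. No filter gave 1780 lower genes and leaving out mixed barcodes 717. Leaving out 1 library each gave 94 to 1180 higher and 16 to 1541 lower genes, of which 91 of the 94 (without P28 replicate 1) and 217 of the 220 (without P28 replicate 2) higher genes were among the 844. With no replicate block, and hence no pairing of the sums by library, 122 genes were higher and 27 lower, all of them among those called with it. The 51 higher and 63 lower list genes became 25 and 32 with DESeq2, 4 and 0 with 10 UMIs in every sum (edgeR, few genes tested), 11 and 6 with no replicate block and 22 and 35 thinned, and 7 to 70 and 8 to 83 when 1 library was left out.

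Against Aqp4 barcodes (643 and 1005), DESeq2 gave 303 and 339, 10 UMIs in every sum 65 and 52, no replicate block 284 and 257, at least 3 Slc26a4 UMIs 421 and 375, and the gene and UMI limits of the study's methods 396 and 515. Leaving out 1 library each gave 103 to 1055 and 64 to 1111. Against Ucma barcodes (480 and 859) the same alternatives gave 212 and 296, 52 and 51, 149 and 165, 405 lower genes at 3 Slc26a4 UMIs, and 278 and 369, with 66 to 785 and 30 to 979 when 1 library was left out. Between the sides (181 and 197), DESeq2 gave 40 and 67, 10 UMIs in every sum 112 higher and no filter 409 higher genes. The sides could not be fitted without either P28 library, since no residual degrees of freedom remain.

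At a threshold of 3 Slc26a4 UMIs the Slc26a4 barcodes were 1.42 and 1.71% of the P28 libraries. The share with Epyc became 0 at P14 and 76.9% in P28 replicate 2, and thinning gave 39.6 and 56.3% at P28. The share with Lgr5 in P28 replicate 2 became 25.6%, and thinning gave 9.05% there and 0 in P14 and P28 replicate 1, where the study's limits also gave 0. Thinning left 47 higher and 4 lower genes at P14. Directions turned for Aqp5 (-0.31) and Wnt4 (-0.17) with no replicate block, for Epyc without P14 (-2.42 to 0.051 over the single libraries left out), for Aqp5 (-0.72 to 1.06), Col1a1 (-5.90 to 0.18), Dct (-1.70 to 1.09) and Lgr5 (-1.42 to 2.47) without P28 replicate 2, for Nefl (0.24) and Otof (0.34) without mixed barcodes, and for Gpx3 (-0.16) without Vmo1 barcodes, an alternative added after the values were seen. The cause of these changes was not tested. The P14 profile is limited by its 13935 UMIs.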

Other observations

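Xist, the long noncoding RNA of the inactive X chromosome, was seen in 39.2% of the other barcodes at P14 (397 CPM) and in 0.109 and 0.117% at P28 (0.249 and 0.353 CPM). The Slc26a4 barcodes held 5 Xist UMIs at P14 and 0 in both P28 libraries. The labels do not give the sex of the pooled mice, so that in these libraries age and whatever goes with Xist cannot be told apart.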
